A study of Mus musculus with 9 samples.

Results

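The secreted factors that start, guide and stabilize blood vessels were followed in orthotopic 4T1 mammary tumors under BI 853520 (abbreviated BI), a small-molecule inhibitor of focal adhesion kinase (FAK). The 10 genes were chosen by name and read from the deposited counts by Entrez identifier, out of 18755 genes in all. They are Vegfa, Vegfb, Vegfc, Vegfd and Pgf of the vascular endothelial growth factor (VEGF) family, Angpt1 and Angpt2 of the angiopoietin family, the angiopoietin-like genes Angptl2 and Angptl4, and the apelin gene Apln. All 10 were found, and all 10 were abundant enough to be tested.

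Tumors were grown in female BALB/c mice aged 6 to 10 weeks after injection of 1000000 4T1 cells, a metastatic murine breast cancer line, into a mammary fat pad. From day 15 after injection, mice received either the 0.5% Natrosol vehicle alone (3 tumors, replicates 1 to 3) or 50 mg/kg BI in Natrosol (6 tumors, replicates 4 to 9) for 5 days. Each tumor gave 1 messenger RNA library from bulk tissue, so that host vessels, stroma and leukocytes were measured together with the carcinoma cells of this single transplanted line. Total counts were between 21727879 and 33850245 in the vehicle group and between 16931607 and 22349873 in the BI group. Of the carcinoma markers, Krt18 and Krt8, which encode the keratins of simple epithelium, were abundant, with means of 579 and 478 CPM (counts per 1000000 counts of a library) in vehicle tumors. Epcam, Krt14 and Krt5, named after their values were seen, were low, with vehicle means of 2.13, 0.924 and 0.672 CPM. The endothelial marker Eng stood at 229 ± 18.8 CPM (SD, n = 3) in vehicle tumors and at 251 ± 13.5 CPM (SD, n = 6) in BI tumors.

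VEGF ligands bind receptor tyrosine kinases on endothelial cells. Vegfa drives sprouting mainly through the receptor encoded by Kdr, Vegfb and Pgf bind the receptor encoded by Flt1, and Vegfc and Vegfd act on the lymphatic receptor encoded by Flt4. Angiopoietin 1, made largely by cells around vessels, activates the Tie2 receptor (gene Tek) and stabilizes vessels, whereas angiopoietin 2 is stored in endothelial cells and can oppose it. Apelin is made by sprouting endothelial cells and hypoxic cells and acts on the receptor encoded by Aplnr.

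Of the 10 ligands, Vegfb and Apln passed the test between BI and vehicle tumors, and both were lower under BI. Vegfb lies on the minus strand of chr19:7056963-7062141 and Apln on the minus strand of chrX:45378323-45388030 (mm9). Their promoters are shown because they are the promoters of the ligands that passed the test. Each sequence is the 250 bases before the RefSeq start, written 5′ to 3′ on the strand of the gene and located on mm9 at chr19:7062142-7062391 and chrX:45388031-45388280, with the GC box GGGCGG (either strand) in capitals.
Vegfb: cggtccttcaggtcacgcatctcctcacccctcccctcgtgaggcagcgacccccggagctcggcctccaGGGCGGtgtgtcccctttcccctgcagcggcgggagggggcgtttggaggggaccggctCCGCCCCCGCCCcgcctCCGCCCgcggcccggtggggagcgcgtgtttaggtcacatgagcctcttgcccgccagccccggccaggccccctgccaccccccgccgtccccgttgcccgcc
Apln: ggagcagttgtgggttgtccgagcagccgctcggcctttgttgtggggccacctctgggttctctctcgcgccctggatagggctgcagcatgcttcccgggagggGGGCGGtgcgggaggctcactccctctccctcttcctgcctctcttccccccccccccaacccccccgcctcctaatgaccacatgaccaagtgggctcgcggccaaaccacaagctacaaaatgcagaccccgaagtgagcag
The Vegfb promoter was 76.4% G and C with 4 GC boxes, and the Apln promoter was 65.2% G and C with 1. RefSeq promoters were matched for 7 of the 10 ligands (9 promoters), and a GC box was present in 7 of the 9, those of Angptl2, Apln, Pgf, Vegfa, Vegfb and Vegfc. In the same window, 32.7% of 32851 promoters held it. The letters ACGTG were found in 1 of the 9 promoters, at one of the starts of Vegfa, and in 16.6% of all promoters. They are a form of the core of the hypoxia response element, and no other form was searched. TGACTCA (AP-1 motif, 4.46% of all promoters), GGAATG (TEAD motif, 12.6%) and the PPAR element (a direct repeat with a single spacer base, 0.0335%) were in none of the 9, each searched on both strands. A match of letters is a description of the sequence and not evidence of a bound site.

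Across all 13966 genes tested, 2040 were higher (14.6%) and 1973 lower (14.1%) in BI tumors at an adjusted p of at most 0.05 in the edgeR quasi-likelihood test. Against this background, 0 of the 10 ligands were higher and 2 were lower, a share close to the background. The median log2 fold change of the 10 ligands was -0.25, and that of all genes tested was -0.0037. The fitted log2 fold change was below 0 for 8 ligands, most of which did not pass, and above 0 for 2. Among all genes tested it was below 0 for 7050 and above 0 for 6916. All 6 BI tumors lay below all 3 vehicle tumors for 2 ligands, where 14.0% of all genes tested did so, and all 6 lay above for none of the ligands, where 14.1% of all genes did so. These were bulk tumors, so fewer cells of a type and less RNA per cell cannot be told apart, and p-values measure the spread between these 9 tumors only.

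**Figure D1:**
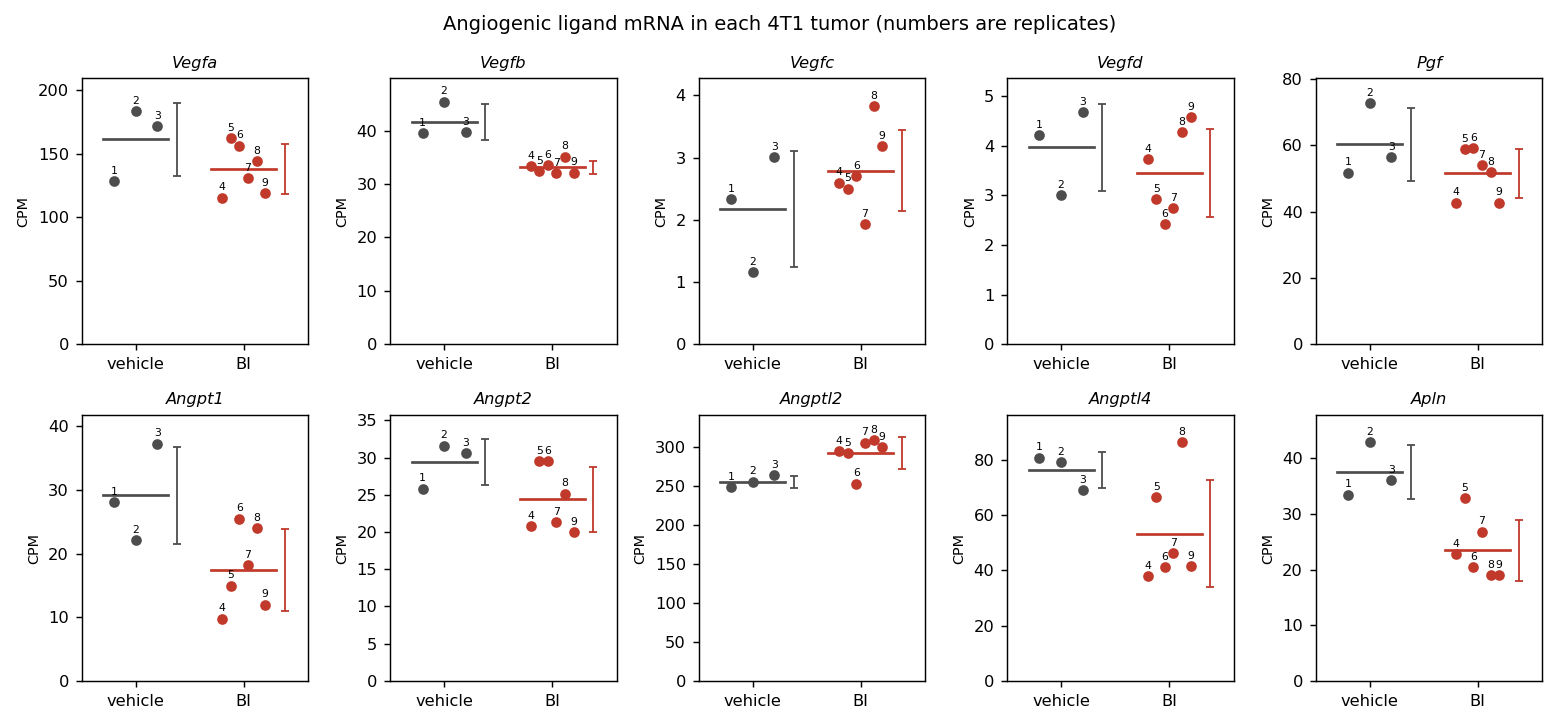
CPM (vertical axes, from 0) of each ligand in the 3 vehicle tumors (gray) and the 6 BI tumors (red), numbered by replicate, with the group mean as a line and the SD as the bar beside it. The groups were apart for Vegfb and Apln, and 1 BI tumor kept the groups from being apart for Angptl2 (replicate 6) and for Angptl4 (replicate 8).

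Vegfb, a VEGF of muscle, heart and fat tissue that binds Flt1, fell by 0.33 on the log2 scale, with the smallest SE of the 10 ligands. It stood at 39.5, 45.4 and 39.8 CPM in vehicle replicates 1, 2 and 3. The BI tumors had 32.1 CPM at the lowest, 33.0 at the median and 35.2 at the highest. Every BI tumor lay below every vehicle tumor, and the BI group varied little. The means were 41.6 ± 3.35 CPM (SD, n = 3) and 33.1 ± 1.17 CPM (SD, n = 6), and the log2 fold change was -0.33 (SE 0.0651, 95% interval -0.47 to -0.18, adjusted p = 0.00337, edgeR quasi-likelihood test). The difference passed the test without any one of the 9 tumors, but its size did not reach the fold limit that the study applied.

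Vegfa (chr17:46153942-46169326, minus strand), the main driver of vessel sprouting, was at 129, 183 and 172 CPM in vehicle replicates 1, 2 and 3. In BI tumors its lowest value was 116 CPM, the median 138 and the highest 163. The groups overlapped, with vehicle replicate 1 within the BI range and 2 BI tumors below all vehicle tumors. The log2 fold change of -0.22 (SE 0.128, 95% interval -0.50 to 0.05) did not pass the edgeR quasi-likelihood test (adjusted p = 0.208).

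Pgf (chr12:86507589-86518246, minus strand), which encodes placental growth factor, had values of 51.8, 72.7 and 56.4 CPM in vehicle tumors. BI tumors had 42.7 CPM at the lowest, 52.9 at the median and 59.2 at the highest. The groups overlapped here too, and the order of the tumors resembled that of Vegfa: vehicle replicate 2 was the highest of its group and replicate 1 the lowest, BI replicates 5 and 6 were the highest of the treated tumors, and BI replicates 4 and 9 the lowest. The log2 fold change was -0.23 (SE 0.129, 95% interval -0.51 to 0.06, adjusted p = 0.210, edgeR quasi-likelihood test). The intervals of Vegfa and Pgf both include 0 and, at their lower ends, decreases larger than the one fitted for Vegfb.

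The lymphatic ligands Vegfc (chr8:55162886-55271808, plus strand) and Vegfd (chrX:160811310-160840582, plus strand) had the fewest counts. Vegfc was at 2.34, 1.16 and 3.01 CPM in vehicle tumors and between 1.93 and 3.82 CPM (median 2.65) in BI tumors. Vegfd was at 4.22, 3.00 and 4.68 CPM in vehicle tumors and between 2.41 and 4.58 CPM (median 3.33) in BI tumors. Both overlapped between the groups. They rest on 26 to 102 counts per tumor for Vegfc and 50 to 159 for Vegfd, and their log2 fold changes of 0.34 (SE 0.288, 95% interval -0.29 to 0.97) and -0.22 (SE 0.227, 95% interval -0.71 to 0.28) did not pass (adjusted p = 0.406 and 0.507, edgeR quasi-likelihood test). Of the lymphatic endothelial markers, 4 of 6 found were tested and none passed, where 14.6% of all genes tested were higher and 14.1% lower. Their summed level was 79.4 ± 18.8 CPM (SD, n = 3) in vehicle and 79.8 ± 8.93 CPM (SD, n = 6) in BI tumors, and the defining marker Prox1, a transcription factor of lymphatic fate, was near 0, with group means of 0.120 and 0.128 CPM. Pdpn was the most abundant (log2 fold change -0.20, SE 0.178), at -0.33 without BI replicate 4, -0.32 without vehicle replicate 1 and -0.03 without vehicle replicate 2. Lyve1 had the smallest p (log2 fold change 0.40, SE 0.246), at 0.19 without vehicle replicate 1 and 0.75 with an adjusted p of 0.0460 without vehicle replicate 2.

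Angpt1 had the largest fitted decrease of the 10 ligands and a wide spread. It was at 28.1, 22.1 and 37.3 CPM in vehicle replicates 1, 2 and 3. BI tumors had 9.78 CPM at the lowest, 16.6 at the median and 25.5 at the highest. BI replicates 4, 5, 7 and 9 lay below all vehicle tumors, while BI replicates 6 and 8 overlapped with vehicle replicate 2. The log2 fold change of -0.75 (SE 0.265, 95% interval -1.33 to -0.17) had an adjusted p of 0.0528 in the edgeR quasi-likelihood test. It passed when vehicle replicate 2, BI replicate 6 or BI replicate 8 was left out (adjusted p = 0.0468, 0.0227 and 0.0365). The exons of Angpt1 on chr15:42256273-42508523 (mm9, minus strand) overlap those of Gm17473 on the other strand, and no other ligand's exons overlapped another gene. Whether the counting used strand is not given in the sources used here.

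Angpt2 (chr8:18690263-18741562, minus strand), the context-dependent antagonist, was at 25.9, 31.6 and 30.6 CPM in vehicle tumors and between 19.9 and 29.6 CPM (median 23.3) in BI tumors. BI replicates 4, 7, 8 and 9 lay below all vehicle tumors, and replicates 5 and 6, which also had the highest Vegfa and Pgf of the treated tumors, lay within the vehicle range. Its log2 fold change was -0.27 (SE 0.136, 95% interval -0.56 to 0.03, adjusted p = 0.159, edgeR quasi-likelihood test). 

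Angptl2 (chr2:33071589-33103237, plus strand) encodes a secreted factor of inflamed and stromal tissue that binds the receptor encoded by Pirb. It was at 248, 255 and 263 CPM in vehicle tumors, and at 253 CPM at the lowest, 297 at the median and 308 at the highest in BI tumors. All BI tumors but replicate 6 lay above all vehicle tumors. The log2 fold change of 0.19 (SE 0.0675, 95% interval 0.05 to 0.34) had an adjusted p of 0.0510 in the edgeR quasi-likelihood test, and it passed without BI replicate 6 (adjusted p = 0.0102).

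Angptl4 (chr17:33910695-33918520, minus strand), an inhibitor of lipoprotein lipase that is induced by hypoxia and by PPAR receptors, was at 80.9, 79.4 and 69.0 CPM in vehicle tumors. BI tumors ranged from 37.9 CPM through a median of 43.9 to 86.5 CPM. BI replicate 8, at 86.5 CPM, was above all vehicle tumors, and the other 5 BI tumors were below all of them. The log2 fold change was -0.52 (SE 0.225, 95% interval -1.01 to -0.03, adjusted p = 0.104, edgeR quasi-likelihood test), and without BI replicate 8 it was -0.70 with an adjusted p of 0.00864. Angptl4 is also expressed by fat cells, and their part in its level was not tested. The summed level of 10 adipocyte markers was 120.5 ± 25.5 CPM (SD, n = 3) in vehicle and 227 ± 138 CPM (SD, n = 6) in BI tumors, with the highest value, 489 CPM, in BI replicate 9. Of these markers 2 passed as higher, where 14.6% of all genes tested did, and none did without vehicle replicate 1, 2 or 3. They were Lipe (log2 fold change 0.39, adjusted p = 0.0251) and Pck1 (log2 fold change 2.27). Pck1 reached the minimum for testing, 0.477 CPM in 3 tumors, in 2 vehicle tumors and all 6 BI tumors, so that it was tested only through the group where it was high, and its call is not counted as support. Without BI replicate 4 or 6, 3 markers were higher, and without BI replicate 5, 8 or 9 it was 1. Fabp4, the most abundant over both groups but not in vehicle tumors, did not pass (log2 fold change 1.18, adjusted p = 0.0737, all edgeR quasi-likelihood test). It passed without BI replicate 6 (adjusted p = 0.0395), and its log2 fold change was 0.71 without BI replicate 9.

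Apln had the largest decrease of the ligands that passed the test. It was at 33.5, 42.9 and 36.1 CPM in vehicle replicates 1, 2 and 3. BI tumors had 19.0 CPM at the lowest, 21.6 at the median and 32.8 at the highest. The groups did not overlap, although BI replicate 5 came close to vehicle replicate 1. The means were 37.5 ± 4.89 CPM (SD, n = 3) and 23.5 ± 5.44 CPM (SD, n = 6), and Apln fell by 0.67 on the log2 scale (SE 0.160, 95% interval -1.02 to -0.33, adjusted p = 0.00872, edgeR quasi-likelihood test). It passed the test without any one tumor, with the highest adjusted p, 0.0467, without vehicle replicate 2. At the cutoffs of the study (an unadjusted p and a minimum fold), Apln and Angpt1 were lower and none of the ligands was higher, where 3.57% of all genes tested were lower and 9.59% higher.

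**Figure D2:**
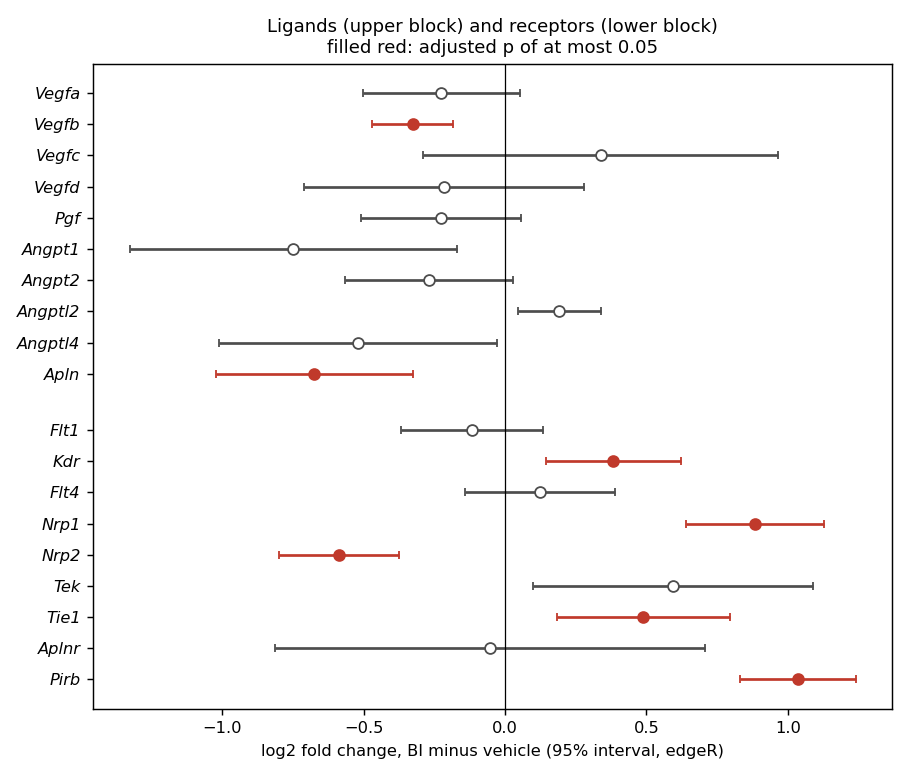
Log2 fold change of BI against vehicle (horizontal axis) with its 95% interval for the 10 ligands and their 9 receptors, filled red where the adjusted p was at most 0.05. Among ligands, Vegfb and Apln are filled, both left of 0, and of the filled receptors Nrp2 is left of 0 while Kdr, Nrp1, Tie1 and Pirb are right of it.

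To compare ligands with one another, CPM were divided by gene length in kb. In vehicle tumors Angptl2 was the highest, at 74.1 ± 2.24 CPM per kb (SD, n = 3), and did not overlap with the next. Angptl4, Vegfa, Pgf and Vegfb followed at 40.2 ± 3.39, 38.7 ± 6.90, 35.8 ± 6.53 and 32.4 ± 2.62 CPM per kb, and neighbors in this order overlapped between tumors. Apln came next at 11.9 ± 1.55 CPM per kb, apart from Vegfb above it and from Angpt2 below it. Angpt2 at 8.25 ± 0.866 and Angpt1 at 7.16 ± 1.88 CPM per kb overlapped, and both were above Vegfd at 2.11 ± 0.464 and Vegfc at 1.15 ± 0.496 CPM per kb. In BI tumors the order was the same except that Angptl4, at 28.0 ± 10.1 CPM per kb (SD, n = 6), came after Vegfa at 33.1 ± 4.69 and Pgf at 30.6 ± 4.39, from which it did not differ beyond the spread. In BI tumors the ranges of Apln and Angpt2 overlapped, as did those of Angpt1 and Vegfd. Over all tumors, Angptl2 stood at the 93.9th percentile of level per length among genes tested, Vegfa at the 82.1st and Vegfc at the 16.7th.

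**Figure D3:**
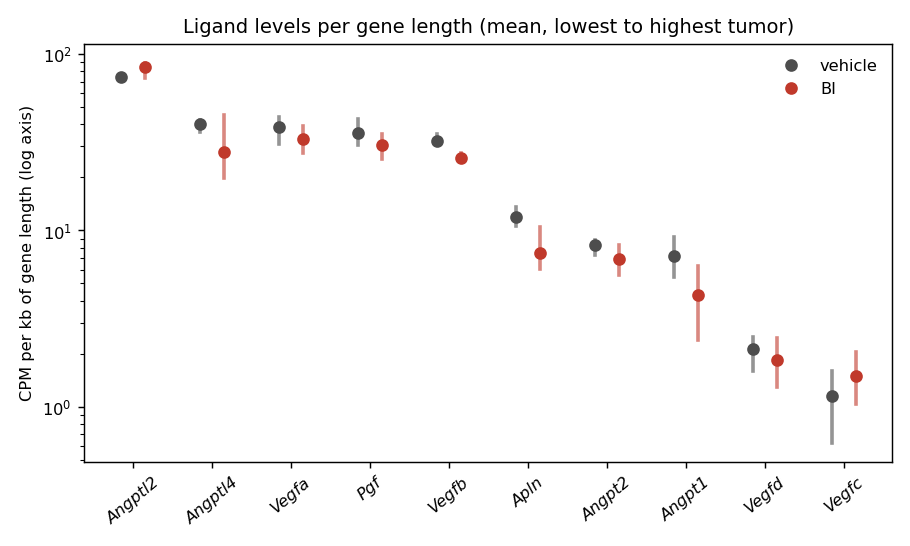
Level of each ligand in CPM per kb of gene length (logarithmic vertical axis) in vehicle (gray) and BI (red) tumors, with the mean as a point and a line from the lowest to the highest tumor. Angptl2 is the highest in both groups, at means of 74.1 and 84.7 CPM per kb, and Vegfc the lowest, at 1.15 and 1.48 CPM per kb.

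The make-up of the VEGF family per length was much alike in the groups. Vegfa gave 35.0 ± 2.67% (SD, n = 3) of the summed level of the 5 VEGF genes in vehicle and 35.5 ± 1.76% (SD, n = 6) in BI tumors. The share of Pgf was 32.4 ± 2.06% and 32.9 ± 2.09%, and that of Vegfb was 29.6 ± 2.20% and 28.0 ± 2.58%. These mean shares differed by less than the spread between tumors. For the Vegfb share, 4 BI tumors lay below all vehicle tumors and 0 above. The highest of those below, BI replicate 8, was at 28.23% against 28.24% in vehicle replicate 3. The ratio of Angpt2 to Angpt1 per length was 1.05, 1.64 and 0.940 in vehicle tumors and 2.43, 2.26, 1.33, 1.34, 1.20 and 1.90 in BI replicates 4 to 9. BI replicates 4, 5 and 9 were above all vehicle tumors, and the other 3 lay within the vehicle range.

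The receptors that read these ligands were examined next. Of 9 receptors and co-receptors, 4 were higher and 1 was lower in BI tumors (14.6% and 14.1% of all genes tested), with a median log2 fold change of 0.38. Without vehicle replicate 3, 2 were higher, and without BI replicate 8, 5 were. The co-receptors of the VEGF family moved in opposite directions. Nrp1, which encodes the neuropilin that presents VEGF-A to its main receptor, was at 71.3, 71.5 and 60.5 CPM in vehicle tumors and at 107 CPM at the lowest, 121 at the median and 145 at the highest in BI tumors. Nrp1 rose by 0.88 on the log2 scale (SE 0.112, adjusted p = 0.000206, edgeR quasi-likelihood test), with all BI tumors above all vehicle tumors. Nrp2, the neuropilin of lymphatic and venous endothelium that is also found on tumor cells and macrophages, was at 292, 284 and 301 CPM in vehicle tumors and between 172 and 232 CPM (median 182) in BI tumors. Nrp2 fell by 0.59 on the log2 scale (SE 0.0974, adjusted p = 0.00110, edgeR quasi-likelihood test), again with no overlap. The ratio of Nrp1 to Nrp2 per length was between 0.276 and 0.346 in vehicle and between 0.632 and 1.16 in BI tumors.

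Kdr, the main signaling receptor of VEGF-A, was at 22.0, 18.4 and 19.8 CPM in vehicle tumors and between 22.8 and 30.1 CPM (median 25.9) in BI tumors. The groups did not overlap, with BI replicate 8 close to vehicle replicate 1, and Kdr rose by 0.38 on the log2 scale (SE 0.109, adjusted p = 0.0214, edgeR quasi-likelihood test). Kdr did not pass without vehicle replicate 2 (adjusted p = 0.0898) or without vehicle replicate 3 (adjusted p = 0.0754). Tie1, the orphan partner of Tie2, rose from 11.4 ± 0.566 CPM (SD, n = 3) to 16.0 ± 2.90 CPM (SD, n = 6), a log2 fold change of 0.49 (SE 0.141, adjusted p = 0.0222, edgeR quasi-likelihood test). Tie1 did not pass without vehicle replicate 1 (adjusted p = 0.0831) or without vehicle replicate 3 (adjusted p = 0.0714). Tek, the angiopoietin receptor itself, had 3.26 ± 0.826 and 4.95 ± 1.15 CPM and did not pass (log2 fold change 0.59, SE 0.228, adjusted p = 0.0697, edgeR quasi-likelihood test), but passed without BI replicate 8 (adjusted p = 0.0347).

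Pirb, the leukocyte receptor to which Angptl2 binds, had the smallest p of the receptors. It was at 58.9, 56.5 and 46.7 CPM in vehicle tumors and at 99.3 CPM at the lowest, 109.5 at the median and 124 at the highest in BI tumors. No tumors overlapped, and the log2 fold change was 1.04 (SE 0.0938, adjusted p = 3.42e-05, edgeR quasi-likelihood test). Pirb is expressed by myeloid cells. Of 10 macrophage markers 9 were higher in BI tumors, where 14.6% of all genes tested were, and their summed level was 2051 ± 289.8 CPM (SD, n = 3) against 3910 ± 281 CPM (SD, n = 6), with all BI tumors above all vehicle tumors. C1qb, a complement subunit, and Csf1r, the receptor for the macrophage growth factor, rose by 1.11 and 0.91 on the log2 scale, and Mrc1, the most abundant, by 0.82 (adjusted p = 0.0119, not passed without vehicle replicate 1 at 0.0576 or replicate 3 at 0.0677). The part of macrophages in the level of Pirb was not tested. The remaining receptors, named after their values were seen, did not pass: Flt1 had a log2 fold change of -0.12 (SE 0.115), Flt4 of 0.12 (SE 0.121) and the apelin receptor gene Aplnr of -0.05 (SE 0.349). Leaving out 1 tumor moved Flt1 to -0.06 without vehicle replicate 2, -0.18 without vehicle replicate 1 and -0.21 without BI replicate 5, and Aplnr had no stable sign, from -0.42 without vehicle replicate 2 to 0.18 without vehicle replicate 3.

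**Figure D4:**
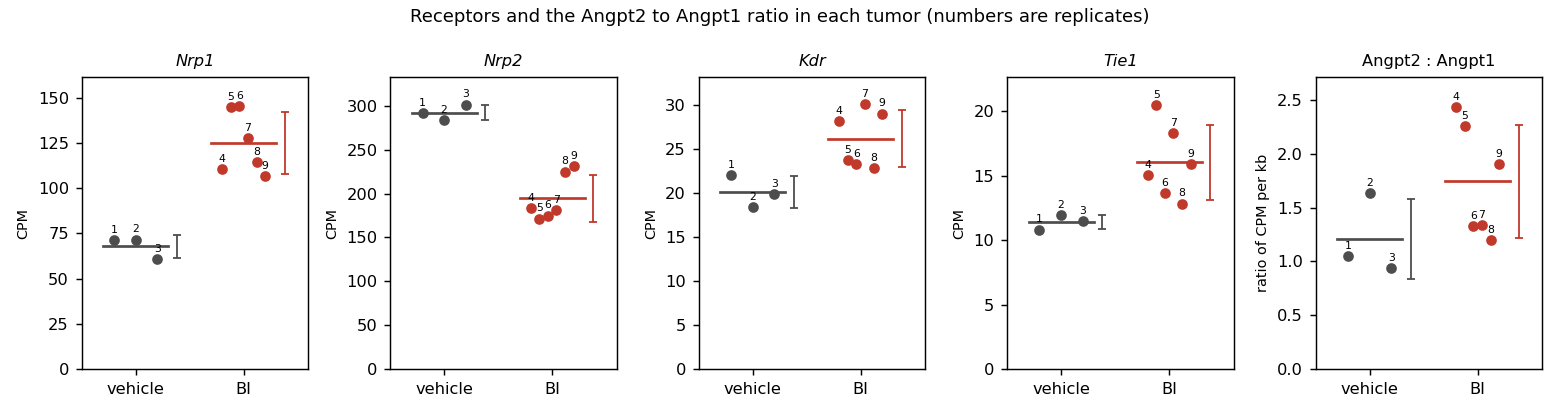
CPM of 4 receptors in each tumor and the ratio of Angpt2 to Angpt1 per length (vertical axes from 0), numbered by replicate, with the group mean as a line and the SD as the bar beside it. Nrp1 (at least 107 CPM in BI tumors), Kdr and Tie1 are higher and Nrp2 (at most 232 CPM) is lower in all BI tumors, and the ratio overlaps between the groups.

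The summed level of 18 endothelial markers was close to equal in the vehicle tumors, at 582, 578 and 582 CPM, and lay between 619 and 761 CPM (median 655) in BI tumors, above all vehicle tumors. Of these markers 6 were higher and none lower, where 14.6% and 14.1% of all genes tested were, with a median log2 fold change of 0.29. Leaving out 1 tumor at a time gave between 2 and 9 higher, with 2 without vehicle replicate 3, 3 without vehicle replicate 1 and 9 without BI replicate 6. Clec14a, an endothelial lectin-like receptor, rose from 4.15 ± 0.109 CPM (SD, n = 3) to 7.06 ± 1.18 CPM (SD, n = 6; log2 fold change 0.76, SE 0.156, adjusted p = 0.00378, edgeR quasi-likelihood test). Sox18, a transcription factor of endothelial fate, rose from 8.19 ± 1.11 CPM (SD, n = 3) to 12.3 ± 1.33 CPM (SD, n = 6; log2 fold change 0.60, SE 0.125, adjusted p = 0.00438). Eng, the most abundant marker, did not pass (log2 fold change 0.13, SE 0.0678, adjusted p = 0.157; 0.07 without vehicle replicate 2). The part of these markers in the levels of the receptors was not tested. The 11 pericyte and smooth muscle markers had 1 higher and none lower (14.6% and 14.1% of all genes tested), and their sums overlapped, at 292 ± 26.2 CPM (SD, n = 3) and 324 ± 21.3 CPM (SD, n = 6). The gene that passed was Acta2, the smooth muscle actin (log2 fold change 0.27, SE 0.0921, adjusted p = 0.0465), which did not pass in 6 of 9 fits that left out 1 tumor, and the most abundant was Notch3 (log2 fold change 0.15, SE 0.140), at 0.05 without BI replicate 5, 0.06 without vehicle replicate 1 and 0.25 without vehicle replicate 2.

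Genes of the tip cell, the leading cell of a sprout, were called about as often as all genes. Of 12 tip cell genes 2 were higher and 1 was lower, against 14.6% and 14.1% of all genes tested, with a median log2 fold change of 0.06. Esm1, a secreted proteoglycan induced in tip cells by VEGF-A, was at 7.15, 11.8 and 9.16 CPM in vehicle tumors and between 3.87 and 7.66 CPM (median 4.56) in BI tumors. BI replicate 5 lay within the vehicle range and the other 5 BI tumors below it. Esm1 fell by 0.88 on the log2 scale (SE 0.221, adjusted p = 0.0119, edgeR quasi-likelihood test), but did not pass without vehicle replicate 2 (adjusted p = 0.0690). The genes that were higher were Kdr and the semaphorin receptor gene Plxnd1 (log2 fold change 0.35, SE 0.114, adjusted p = 0.0373), which did not pass in 5 of the 9 fits that left out 1 tumor. Unc5b, the most abundant, did not pass (279 ± 7.72 and 253 ± 27.8 CPM), and neither did Nid2 and Egr3 (log2 fold changes 0.34 and 0.24, the latter at 0.38 without vehicle replicate 2 and 0.16 without vehicle replicate 3). Without vehicle replicate 2 or 3, none of the 12 was higher.

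Among 19 other pro-angiogenic ligands tested, 3 were higher and 6 lower (14.6% and 14.1% of all genes tested), and 3 were lower without vehicle replicate 2, with a median log2 fold change of -0.24. Hbegf, an EGF receptor ligand, had the smallest p and fell from 43.3 ± 2.69 CPM (SD, n = 3) to 18.7 ± 2.90 CPM (SD, n = 6; log2 fold change -1.22, SE 0.110, adjusted p = 3.42e-05, edgeR quasi-likelihood test). Prok2, a prokineticin of myeloid cells, fell from 5.29 ± 1.34 to 1.18 ± 0.760 CPM (log2 fold change -2.19, SE 0.357, adjusted p = 0.000961). Beside it, the summed level of 7 neutrophil markers was 1159 ± 83.8 CPM (SD, n = 3) in vehicle and 617 ± 171 CPM (SD, n = 6) in BI tumors, with all BI tumors below all vehicle tumors. S100a9 and Retnlg were among the 4 neutrophil markers that fell (14.1% of all genes tested were lower), while Mmp9, the most abundant, did not pass (log2 fold change -0.70, adjusted p = 0.101; -0.90 and 0.0237 without BI replicate 9), and the part of neutrophils in the level of Prok2 was not tested. Pdgfc and Hgf, growth factors for mesenchymal and epithelial cells, rose by 1.22 and 0.86 on the log2 scale (adjusted p = 0.00197 and 0.0101). Efna1, an ephrin ligand, fell by 0.44 (adjusted p = 0.00877) and Pdgfa by 0.52 (adjusted p = 0.0243) on the log2 scale. Without vehicle replicate 2 neither passed (adjusted p = 0.0511 and 0.0751), and without vehicle replicate 3 Pdgfa did not pass (adjusted p = 0.116). Fgf1, the most abundant over both groups but below Pdgfa in vehicle tumors, had 147 ± 26.9 and 218 ± 66.8 CPM and did not pass (log2 fold change 0.56, adjusted p = 0.0812), but passed without BI replicate 4 (adjusted p = 0.0497) or BI replicate 9 (adjusted p = 0.0377).

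Relatives of the angiopoietins and of apelin outside the 10 were scarce. Of 7 such genes 3 were tested. Angpt4, another angiopoietin, was at 0.473 ± 0.0769 CPM (SD, n = 3) in vehicle and 1.18 ± 0.492 CPM (SD, n = 6) in BI tumors, with no overlap (log2 fold change 1.29, SE 0.378). Angptl7 was at 0.403 ± 0.159 and 0.824 ± 0.209 CPM (log2 fold change 1.04, SE 0.344). Both reached the minimum for testing (10 counts at the median depth, or 0.477 CPM, in 3 tumors) in 1 vehicle tumor and all 6 BI tumors. They were thus tested only through the group where they were high, so these values are a description and no call is given. Angptl6 did not pass (log2 fold change -0.57, SE 0.402; -0.28 without vehicle replicate 2). Angptl1, Angptl8 and Apela, the second ligand of the apelin receptor, were among those too low to be tested.

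Of 12 genes listed as inhibitors of angiogenesis, 1 was higher and 2 were lower (14.6% and 14.1% of all genes tested), with a median log2 fold change of 0.08. One of those lower was Vash2 of the vasohibin family, which is not an inhibitor in the way Vash1 is but is known to favor vessel growth, so that Col18a1 was the inhibitor called lower. Vash2 fell from 35.7 ± 0.990 CPM (SD, n = 3) to 26.5 ± 2.40 CPM (SD, n = 6; log2 fold change -0.43, SE 0.0802, adjusted p = 0.00229, edgeR quasi-likelihood test). Cxcl9, an interferon-induced chemokine, rose from 179 ± 32.0 to 302 ± 51.6 CPM (log2 fold change 0.76, SE 0.149, adjusted p = 0.00310). Col18a1, the collagen from which endostatin is released, fell by 0.55 on the log2 scale (SE 0.165, adjusted p = 0.0267), but did not pass without vehicle replicate 2 (adjusted p = 0.119) or vehicle replicate 3 (adjusted p = 0.0601). Thbs1, the most abundant, was at 1694 ± 289 and 1402 ± 405 CPM and did not pass (log2 fold change -0.27, adjusted p = 0.384), at -0.14 without vehicle replicate 3, -0.17 without BI replicate 4 and -0.18 without BI replicate 9. Neither did Adamts1, Vash1 and Timp3 (log2 fold changes 0.29, 0.24 and 0.34). Without vehicle replicate 3 or BI replicate 6, Adamts1 (adjusted p = 0.0306 and 0.0452) and Timp3 (log2 fold change 0.53 and 0.41, adjusted p = 0.0253 and 0.0329) passed, as did Vash1 without BI replicate 8 (adjusted p = 0.0458), and Adamts1 was at 0.18 without vehicle replicate 2.

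Vegfa, Angptl4 and Apln are known targets of the hypoxia-inducible factors (HIF), and of these Apln alone passed the test. Of 29 other HIF targets, 19 were lower, 2 higher and 8 did not pass, where 14.1% of all genes tested were lower and 14.6% higher, and the median log2 fold change was -0.37. Their summed level was 9302, 10633 and 9121 CPM in vehicle tumors and between 6788 and 7841 CPM (median 7217) in BI tumors, with no overlap. Leaving out 1 tumor at a time, between 17 and 20 were lower. Ero1a, an oxidase of the endoplasmic reticulum, fell from 630 ± 59.0 CPM (SD, n = 3) to 283 ± 31.5 CPM (SD, n = 6; log2 fold change -1.15, SE 0.0936, adjusted p = 1.86e-05, edgeR quasi-likelihood test). Slc2a1, the glucose transporter, fell from 342 ± 31.9 to 221 ± 18.3 CPM (adjusted p = 0.000212), and Car9, the carbonic anhydrase used as a hypoxia marker, from 45.3 ± 4.88 to 24.5 ± 3.63 CPM (adjusted p = 0.000216). Pdk1, Higd1a and Pgk1 fell by 0.53, 0.50 and 0.53 on the log2 scale. The glycolytic enzyme gene Aldoa, the most abundant, fell by 0.29 (adjusted p = 0.0279), but did not pass without vehicle replicate 2 (log2 fold change -0.19, adjusted p = 0.152) or BI replicate 7 (adjusted p = 0.0574). The 2 that were higher, named after their values were seen, were Pfkfb3 (log2 fold change 0.36) and Stc2 (log2 fold change 0.67). Neither passed without vehicle replicate 3 (adjusted p = 0.0706 and 0.140), and Stc2 did not pass without vehicle replicate 1, vehicle replicate 2 or BI replicate 7 either (adjusted p = 0.0643, 0.0626 and 0.0573). Among 13 PPAR targets tested, the other class of genes to which Angptl4 belongs, 1 was higher, 1 lower and 11 did not pass (14.6% of all genes tested were higher and 14.1% lower). Without BI replicate 6, 3 were higher. The enzymes of fatty acid oxidation Ehhadh (log2 fold change 0.97) and Acadl (log2 fold change -0.24) were those that passed, both with an adjusted p of 0.00665, and Plin2, the most abundant, did not (298 ± 17.1 and 279.6 ± 45.0 CPM). The part of HIF and of PPAR receptors in the levels of the ligands was not tested. The paper's hypoxia stain of 4T1 tumor sections showed no significant change.

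**Figure D5:**
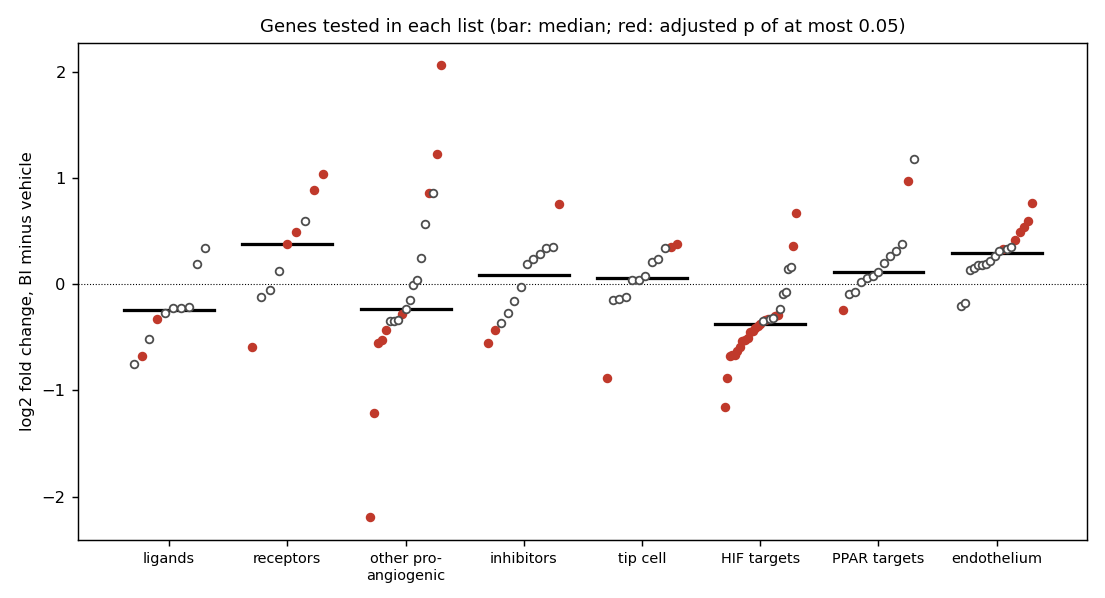
Log2 fold change of BI against vehicle (vertical axis) for each tested gene of 8 lists, red where the adjusted p was at most 0.05, with the list median as a bar. The medians were -0.25 for the ligands, 0.38 for their receptors, -0.37 for HIF targets and 0.29 for endothelial markers.

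Marker RNA of other cell types that make or receive these ligands was measured in the same tumors. Of 13 fibroblast markers 4 were higher and none lower, where 14.6% of all genes tested were higher. This count moved with single tumors: it was 1 without vehicle replicate 1, 2 without vehicle replicate 2, 7 without vehicle replicate 3 or BI replicate 5, and 8 without BI replicate 6. Their summed level was 1994, 2105 and 3425 CPM in vehicle tumors and between 2703 and 5928 CPM (median 4689) in BI tumors, with Col1a1 the most abundant over both groups, though below Col3a1 in vehicle tumors (log2 fold change 0.96, adjusted p = 0.0538, edgeR quasi-likelihood test). Col1a1 passed without vehicle replicate 3 (adjusted p = 0.0282), BI replicate 5 (adjusted p = 0.0357) or BI replicate 6 (adjusted p = 0.0160). Pi16, a marker of adventitial fibroblasts, rose by 1.59 and Fbln1 by 1.22 on the log2 scale, and Fbln1 did not pass without vehicle replicate 1 (adjusted p = 0.0517). BI replicate 6 had the lowest fibroblast sum and the highest Angpt1 of the treated tumors, whereas vehicle replicate 3 had both the highest fibroblast sum and the highest Angpt1 of its group. Among 8 carcinoma markers 2 were lower and none higher (14.1% and 14.6% of all genes tested), at a sum of 1091 ± 115 CPM (SD, n = 3) in vehicle and 843 ± 94.8 CPM (SD, n = 6) in BI tumors. The 2 were Krt18 and Krt8, which make up most of the sum, while the median log2 fold change of the 8 was -0.03, with 4 below 0 and 4 above. Krt18 fell by 0.50 on the log2 scale (adjusted p = 0.00636) and Krt8 by 0.28 (adjusted p = 0.0444, not passed in 6 of the 9 fits that left out 1 tumor). Of 7 mast cell markers 5 were higher and 1 lower (14.6% and 14.1% of all genes tested), with sums of 63.1 to 80.4 CPM in vehicle and 73.2 to 384 CPM in BI tumors. Cma1, a mast cell protease, and Kit, the stem cell factor receptor, rose by 3.10 and 0.71 on the log2 scale, while Hdc, which makes histamine and was the most abundant in vehicle but not in BI tumors, fell by 0.65 (adjusted p = 0.0213, not passed without vehicle replicate 2 at 0.0830 or replicate 3 at 0.0557). The part of these cell types in the levels of the ligands was not tested.

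The genes whose levels followed Vegfb and Apln most closely were sought over the 9 tumors, which share the treatment groups, as a description. For Vegfb, Gpi1, a glycolytic enzyme and HIF target, had the highest correlation (Pearson r = 0.989 of log2 CPM, n = 9 tumors). For Apln they were Lancl1 (r = 0.960) and Tmx4 (r = 0.956). Gpi1, Lancl1 and Tmx4 were all lower in BI tumors in the edgeR quasi-likelihood test, at log2 fold changes of -0.33, -0.30 and -0.30.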

How the data were processed

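Per the labels and the study's methods, RNA of 9 4T1 tumors was sequenced from both ends after stranded library preparation, and tumors with insufficient RNA quality were left out. The authors used STAR to place reads on mm9, kept single alignments, and assigned a read to a RefSeq gene with QuasR by its start position, which had to be exonic. The deposited values are raw counts, with gene lengths (the lengths behind the values per kb). The strand setting and any batch are not given in the sources used here.

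Symbols came from RefSeq (18700 of 18755 identifiers), positions from GENCODE on mm9 (Vegfd under its older name Figf), and promoters from RefSeq, searched over the 250 bases before each start. Raw counts entered edgeR 4.0.16 (R 4.3.3) with TMM factors and filterByExpr (count of 10, total of 15), and BI was set against vehicle by the quasi-likelihood F test without covariates, with Benjamini-Hochberg adjustment over 13966 genes and a threshold of 0.05. CPM are TMM-normalized. A floor of 3 counts was between 0.0886 and 0.177 CPM of the total counts, before TMM factors. The edgeR procedure was checked on simulated data. Alternatives were RLE factors, library size alone, no filter, at least 1 CPM in 3 tumors, edgeR's other tests (likelihood ratio, exact), limma-voom (limma 3.58.1), DESeq2 1.42.0, the study's cutoffs (unadjusted p of at most 0.05 and a minimum fold) and leaving out each tumor.

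The 10 ligands and all lists were chosen with earlier results of these data known, and a few genes stand in more than one list (Kdr, Flt1, Tie1, Flt4, Adm, Dll4 and Fabp4). Named genes are the 10 ligands, the most abundant gene (by the sum of both group means of CPM, not per length) and up to 6 genes with the smallest p of each pathway list, the most abundant and the 2 with the smallest p of each cell type list, and 2 nearest genes for each ligand that passed, with exceptions marked. Some genes under this rule are not reported here. Of the genes listed, Ccl21a and Ly6g were not found among the counts.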

Additional observations from a re-analysis of the deposited data

Results flagged for a closer look

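In 99 sets of values from the 6 BI tumors (the named genes, the summed lists and the ratios), 6 held a tumor far from the others by Dixon's test, and chance gives about 1 such set in 20. Angptl2 was at 252.6 CPM in BI replicate 6 and between 291.3 and 307.8 CPM in the other 5. Prok2 was at 2.683 CPM in BI replicate 8 and between 0.6296 and 1.147 CPM in the others. Car9 was at 31.61 CPM in BI replicate 4 and between 21.63 and 24.58 CPM in the others. Acadl was at 221.8 CPM in BI replicate 8 and between 192.9 and 203.3 CPM in the others. Fabp4, a fatty acid binding protein of adipocytes, was at 210.4 CPM in BI replicate 9 and between 41.05 and 101.9 CPM in the others. The summed level of the adipocyte markers, of which Fabp4 is one, was 489.3 CPM in BI replicate 9 and between 129.8 and 263.3 CPM in the others. BI replicate 8 was also the tumor with the highest Angptl4, at 86.5 CPM.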

How the results depend on the processing

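Vegfb and Apln were lower under every alternative of normalization, filter and test and without any one tumor, except that Vegfb, at -0.33, was below the fold limit of the study. Vegfa, Vegfc, Vegfd, Pgf and Angpt2 passed under none of these, but the sizes of the first 4 depended on single tumors. Vegfa was -0.36 without vehicle replicate 1 and -0.12 without vehicle replicate 2, Pgf was -0.07 without vehicle replicate 2, Vegfc was 0.05 without vehicle replicate 2 and 0.67 without vehicle replicate 3, and Vegfd was -0.38 without vehicle replicate 2 and -0.07 without vehicle replicate 3. Without BI replicate 6, Vegfd was -0.13. Of other named genes that did not pass, Tek, Fgf1, Fabp4 and Col1a1 passed with edgeR's likelihood ratio and exact tests, Tek and Adamts1 with DESeq2, Col1a1 with limma-voom and with no filter, and Adamts1 with at least 1 CPM in 3 tumors. Of named genes given as passed, Pck1 did not pass with limma-voom (adjusted p = 0.159), Acta2 with library size alone or no filter (0.0538 and 0.0554) and Krt8 with at least 1 CPM in 3 tumors (0.0523). Angpt1 passed with library size alone (-0.75), no filter (-0.75), the likelihood ratio and exact tests (both -0.74), limma-voom (-0.82) and the cutoffs of the study (-0.75), with a range of -0.91 to -0.53 when 1 tumor was left out. Angptl2 passed with RLE factors (0.20), at least 1 CPM in 3 tumors (0.21), the likelihood ratio and exact tests (both 0.19), DESeq2 (0.20) and limma-voom (0.19), with a range of 0.17 to 0.23 when 1 tumor was left out, so that 1 ligand was called higher under each of these 6. Angptl4 ranged from -0.70 to -0.44 when 1 tumor was left out. Leaving out 1 tumor gave 0 to 1 ligands called higher and 2 to 4 called lower, 4 of them without BI replicate 8. Over all genes, calls without 1 tumor were between 1332 and 2026 higher and between 1172 and 1980 lower, lowest without vehicle replicate 3 in both directions (1289 lower without vehicle replicate 1), and the cutoffs of the study gave 1339 higher and 499 lower. No direction of a ligand was reversed. No paired analysis was possible because the labels give no pairing of animals. The causes of these differences were not tested. Vegfc and Vegfd rest on at most 102 and 159 counts per tumor.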
